A study of Mus musculus with 12 samples.

Results

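The Trbj2 cluster holds the joining (J) segments of the second J cluster of the mouse T cell receptor beta locus, and this account follows its 6 listed segments, J2-1, J2-2, J2-3, J2-4, J2-5 and J2-7. The members were taken as every clonotype whose constant region was listed as TRBC, the beta chain, and whose J-region was one of these 6 names. They were 6 of the 12 J segments listed alone on TRBC chains, and they accounted for 664848 of the 968766 TRBC clonotypes and for 1219213 of the 1791590 TRBC UMIs over the 12 libraries. A UMI is a molecular index that marks 1 cDNA molecule, and a clonotype is 1 listed combination of V gene, J gene and CDR3 nucleotide sequence. One further clonotype, with 3 UMIs, was listed with an undecided J-region and was not counted as a member.

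The libraries came from CD8+ T cells isolated with magnetic beads from the tumor, spleen and tumor-draining lymph node (tdLN) of wild-type mice bearing MTCQ1-2 head and neck squamous carcinoma, a transplanted syngeneic tumor. Mice received control IgG, IL-10-Fc (an IL-10 fused to an Fc domain), αCSF1R (an antibody against the CSF-1 receptor of macrophages) or BF10 (a fusion of such an antibody with IL-10), and the labels give 30 mg/kg of each agent for 3 doses with an interval of 3 days. The study's text gives doses that differ by agent for its experiments in this model. Each treatment and tissue had 1 library made from material of 3 mice mixed together, so that there were 12 libraries and no replicate of any treatment within a tissue, and the age of these mice was not given in the labels. The labels state the cell type as CD8 T cells for all 12 libraries, while the titles of the tdLN libraries do not repeat it, and the libraries hold receptor transcripts only, so that Cd8a and other markers of the selected cells could not be read from them.

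The depth ranged from 32784 TRBC UMIs in the αCSF1R tumor to 210616 in the αCSF1R tdLN. The tumor libraries of control IgG and αCSF1R listed 9466 and 2493 TRBC clonotypes, against 54779 and 90267 in those of IL-10-Fc and BF10, so that these libraries stood apart in how many molecules each clonotype had. In the tdLN libraries of αCSF1R and BF10, 10.4% and 8.26% of TRBC UMIs had at least 7 reads, against a range from 35.3% to 69.6% in the other 10 libraries. Chains of gamma-delta receptors (TRGC and TRDC) made up from 0.873% to 8.93% of all UMIs in tumors, from 0.677% to 2.30% in spleens and from 4.96% to 6.34% in tdLNs. The chain of invariant natural killer T cells, Trav11 joined to Traj18, made up at most 0.114% of TRAC UMIs in tumors, 0.586% in spleens and 0.571% in tdLNs. Intervals on shares are Wilson 95% intervals and cover counting error only. A share of 3 UMIs, taken as a floor for reading small shares, was 0.00142% of TRBC UMIs in the deepest library and 0.00915% in the shallowest. Clonotypes were also listed below this floor, down to 1 UMI.

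In the thymus, the beta chain is assembled from a V, a D and a J segment, and the joint codes for CDR3, the loop that contacts the peptide presented by an MHC molecule. The J segment supplies the end of this loop, up to a conserved phenylalanine. The recombinase cuts beside a recombination signal, which for a J segment is a nonamer, a spacer and a heptamer just upstream of the coding bases. Bases can be removed from the segment ends and others added before they are joined. Once a beta chain is made, its J segment is kept by all descendants of the cell, so that expansion of a clone raises the share of UMIs of its segment. A share of UMIs is a share of transcripts, and more cells with a segment cannot be told apart here from more receptor RNA per cell.

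The germline sequences show what each segment can give to CDR3 and are printed for this reason, with the bases up to and including the phenylalanine codon in capitals. They were read from GRCm38 on the plus strand of chromosome 6 at the positions that RefSeq gives for the genes. J2-1 (Trbj2-1, ENSMUSG00000076492) lies at chr6:41542754-41542803, J2-2 (ENSMUSG00000076493) at chr6:41542957-41543007, J2-3 (ENSMUSG00000076494) at chr6:41543223-41543271, J2-4 (ENSMUSG00000076495) at chr6:41543362-41543410, J2-5 (ENSMUSG00000076496) at chr6:41543453-41543501 and J2-7 (ENSMUSG00000076497) at chr6:41543810-41543856. The capitals span 22 bases in J2-1, 23 in J2-2, 21 in each of J2-3, J2-4 and J2-5, and 19 in J2-7. A further gene, Trbj2-6 at chr6:41543598-41543645, is annotated as a pseudogene, and 0 clonotypes were listed with it.
J2-1: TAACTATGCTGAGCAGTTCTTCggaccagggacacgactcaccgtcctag
J2-2: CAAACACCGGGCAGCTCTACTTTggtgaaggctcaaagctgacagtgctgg
J2-3: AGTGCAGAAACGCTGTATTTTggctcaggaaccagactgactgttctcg
J2-4: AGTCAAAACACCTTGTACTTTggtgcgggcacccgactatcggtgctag
J2-5: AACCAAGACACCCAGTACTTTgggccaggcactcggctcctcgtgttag
J2-7: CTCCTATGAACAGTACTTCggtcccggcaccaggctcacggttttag

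The recombination signals are shown because they are the sequences that the recombinase reads, with the nonamer and the heptamer in capitals around a spacer of 12 bases. Against the consensus letters GGTTTTTGT and CACTGTG, compared on the coding strand at these fixed positions only, J2-7 differed at 1 base of each element. J2-3, J2-4 and J2-5 shared both elements, with 1 difference in the nonamer and 2 in the heptamer. J2-2 had 2 differences in the nonamer and 1 in the heptamer, and J2-1 had 5 and 2. The pseudogene J2-6 had 2 and 3. The segment with the most differences, J2-1, was the second most used of the 6, and the segment with the fewest, J2-7, was the most used.
J2-1 signal: GAATTCTTGgtagcccttttcTGCTGTG
J2-2 signal: GGTTTGTGCcagcatttccagGACTGTG
J2-3 signal: AGTTTTTGTcctgagcctggaGGCTGTG
J2-4 signal: AGTTTTTGTcctgtaccaagaGGCTGTG
J2-5 signal: AGTTTTTGTgttgggttctggGGCTGTG
J2-7 signal: GGTTTGTGTgtggggttgagcCTCTGTG
J2-6 signal: GGTTTCTCTtgggagtcacagGGTTGTG

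The order of the segments was nearly the same in every library. J2-7 took the largest share of TRBC UMIs in 12 of 12 libraries, and it was also the most used of all 12 beta J segments in each of them. J2-1 was the second and J2-5 the third of the 6 in 12 of 12 libraries, and J2-2 was the last in 12 of 12. J2-4 and J2-3 held the places between, with J2-4 ahead in 9 libraries and J2-3 ahead in 3, so that these neighbours had no fixed order. Counted by clonotypes, J2-4 was ahead of J2-3 in 10 libraries and the other places were unchanged in all 12.

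In the spleen, where few clonotypes were expanded, the shares of clonotypes varied little between the 4 libraries. J2-7 made up from 20.6% to 21.5% of TRBC clonotypes, J2-1 from 13.8% to 14.6% and J2-5 from 10.6% to 11.5%. J2-4 made up from 9.24% to 9.56% and J2-3 from 8.81% to 9.26%, and these ranges overlapped. J2-2 made up from 5.06% to 5.33%. Share did not follow position along the cluster: the first segment and the last were the most used, and J2-2, which starts 203 bases after the start of J2-1, was the least used.

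**Figure D1:**
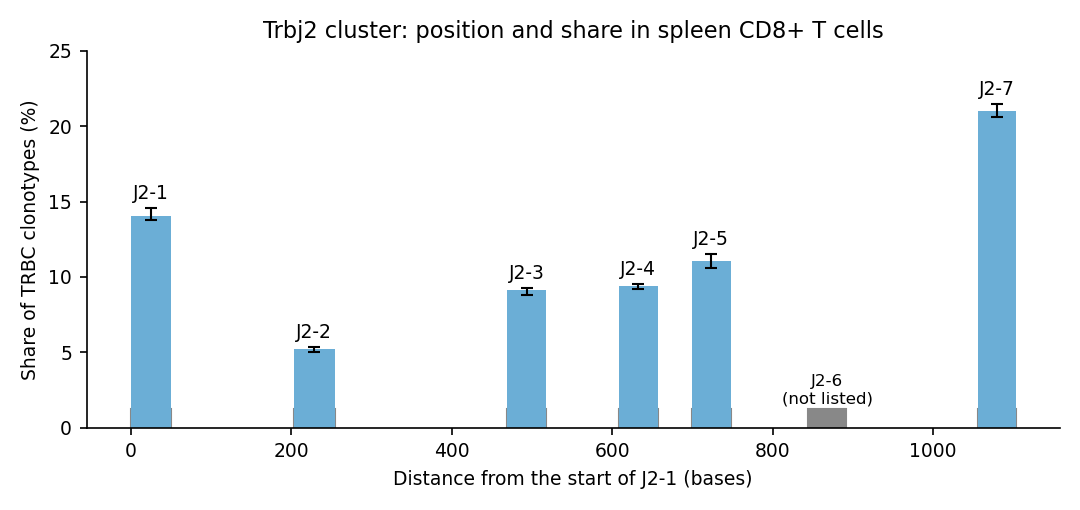
Position of the Trbj2 segments and their share of TRBC clonotypes in the spleen. The x axis is the distance from the start of J2-1 in bases, with each bar as wide as the segment, the bars are means of the 4 spleen libraries, and the whiskers run from the lowest to the highest library. J2-7, 1056 bases from the start of J2-1, is the highest bar at 21%, J2-2 is the lowest at 5.24%, and the pseudogene J2-6 (grey, with no share) was not listed.

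The plot of segment shares shows that the 8 spleen and tdLN libraries lay close together for each segment and that the tumor libraries of control IgG and αCSF1R lay apart for most. Of J2-7, the share of TRBC UMIs was 18.5% in the control IgG tumor, 22.4% in that of IL-10-Fc, 18% in that of αCSF1R and 21.4% in that of BF10, against from 20.4% to 21.3% in spleens and from 19.7% to 21.8% in tdLNs. Of J2-2, it was 3.44% (95% interval 3.33 to 3.55) in the control IgG tumor and 1.77% (1.63 to 1.92) in the αCSF1R tumor, below all 10 other libraries, which lay between 4.85% and 5.39%. The J2-2 share of clonotypes in the αCSF1R tumor was 3.21% (2.59 to 3.98, 80 clonotypes) and also lay below the other 11 libraries, where the lowest was 4.86%.

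**Figure D2:**
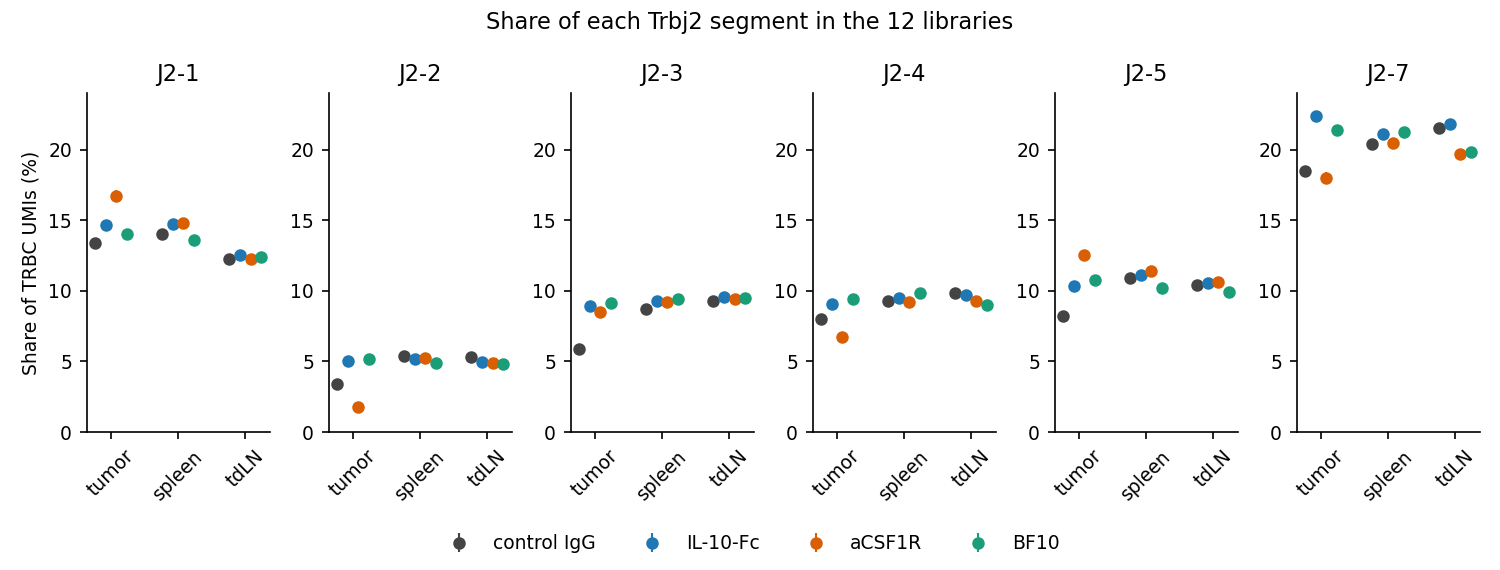
Share of TRBC UMIs (y axis, percent) of each of the 6 Trbj2 segments in the 12 libraries, by tissue on the x axis and by treatment in colour. Each point is 1 library, and the 95% Wilson intervals are mostly smaller than the points. J2-7 is the highest in every library, and the points of control IgG and αCSF1R tumors spread furthest, as with J2-2 at 3.44% and 1.77%.

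Whether CD8+ cells of the 3 tissues differed in their use of the segments was tested within treatments, with the 4 treatments as pairs. An exact two-sided sign-flip permutation test with 4 pairs has 16 sign patterns and cannot give a p below 2 of these 16 (0.12), and p-values were adjusted over 39 tests, that is, the 12 segments and the cluster in 3 pairs of tissues. No comparison could therefore pass a threshold of 0.05, and directions, sizes and ranges are given. All p-values here measure the spread between treatments, each with 1 mixed library.

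J2-1 was the Trbj2 segment with the clearest difference between tissues. Its share of TRBC UMIs in tdLNs was 12.3% with control IgG, 12.5% with IL-10-Fc, 12.2% with αCSF1R and 12.4% with BF10. In spleens it was 14.1%, 14.8%, 14.8% and 13.6% in the same order, and in tumors 13.4%, 14.7%, 16.7% and 14%. All 4 spleen and all 4 tumor libraries lay above all 4 tdLN libraries. The spleen exceeded the tdLN by 1.95 percentage points on average (SD 0.56, n = 4 pairs, exact permutation p = 0.12, adjusted p = 0.287), and the tumor exceeded the tdLN by 2.35 points (SD 1.49, n = 4 pairs, exact permutation p = 0.12, adjusted p = 0.287). Counted by clonotypes, which weighs each sequence once, these differences were 1.56 and 2.02 points and again had the same direction in 4 of 4 treatments. Between tumor and spleen, the direction was split 2 to 2. When clonotypes with at least 0.1% of TRBC UMIs were left out, J2-1 was higher in the tumor than in the spleen in 4 of 4 treatments.

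J2-3 went the other way. In tdLNs its share of TRBC UMIs was 9.31% with control IgG, 9.56% with IL-10-Fc, 9.45% with αCSF1R and 9.52% with BF10, and in tumors it was 5.90%, 8.93%, 8.53% and 9.13%. All 4 tumor libraries lay below all 4 tdLN libraries, with a mean difference of -1.34 points (SD 1.40, n = 4 pairs, exact permutation p = 0.12, adjusted p = 0.287). The control IgG tumor carried much of it, and without that treatment the mean difference was -0.65 points. Against spleens, J2-3 was also lower in tumors in 4 of 4 treatments, by 1.04 points on average and by 0.45 points without control IgG.

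The other segments differed less or without one direction. J2-5 was higher in the spleen than in the tdLN in 4 of 4 treatments, by 0.56 points on average, and J2-2 was higher by 0.20 points in 4 of 4, while J2-3 was lower by 0.30 points in 4 of 4. J2-4 was lower in the tumor than in the spleen in 4 of 4 treatments, by 1.15 points on average, by 0.69 points without αCSF1R. The sign of this J2-4 difference turned when clonotypes with at least 0.1% of TRBC UMIs were left out, to 0.27 points higher in the tumor. J2-7 had no common direction in any pair of tissues. Of the 6 segments, 4 thus differed in 1 direction in all treatments between spleen and tdLN, 2 between tumor and spleen, and 2 between tumor and tdLN. Over all 12 beta J segments the corresponding background was 75% between spleen and tdLN, 25% between tumor and spleen and 33.3% between tumor and tdLN. Shares that did not overlap between the libraries of both tissues were found for 33.3% of the 12 segments between spleen and tdLN, for 25% between tumor and tdLN and for 0% between tumor and spleen, and J2-1 in the first pair and J2-1 and J2-3 in the second were the Trbj2 segments among them.

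The cluster as a whole took from 68.8% to 71.1% of TRBC UMIs in spleens. In tdLNs it took 68.8% with control IgG, 69.1% with IL-10-Fc, 66.1% with αCSF1R and 65.5% with BF10. The spleen was higher than the tdLN in 4 of 4 treatments, by 2.51 points on average (SD 1.95, n = 4 pairs, exact permutation p = 0.12, adjusted p = 0.287). This difference was 0.0082 points with control IgG, 1.96 with IL-10-Fc, 4.28 with αCSF1R and 3.81 with BF10. Without αCSF1R and BF10, whose tdLN libraries had the fewest UMIs with at least 7 reads, the mean difference was 0.98 points. The difference of J2-1 between these tissues was 2.01 points in the same 2 treatments, close to its value over all 4.

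In tumors the cluster took 57.4% of TRBC UMIs with control IgG (95% interval 57.1 to 57.7), 70.5% with IL-10-Fc (70.3 to 70.8), 64.3% with αCSF1R (63.8 to 64.9) and 70.0% with BF10 (69.8 to 70.2). The control IgG tumor was the lowest of the 12 libraries, and its interval did not overlap that of any of them. Each treatment had 1 library, so these values compare libraries and no test of treatment was possible. Counted by clonotypes, the same tumors had 66.4%, 70.9%, 65.1% and 69.9%, and the αCSF1R tumor was then the lowest. With clonotypes of at least 0.1% of TRBC UMIs left out, the shares of UMIs were 67.7%, 70.7%, 67.3% and 70.0%. The 13.1 points by which IL-10-Fc exceeded control IgG became 3.01 points in this count, the 12.6 points of BF10 became 2.32, and the 6.92 points of αCSF1R turned to -0.42.

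**Figure D3:**
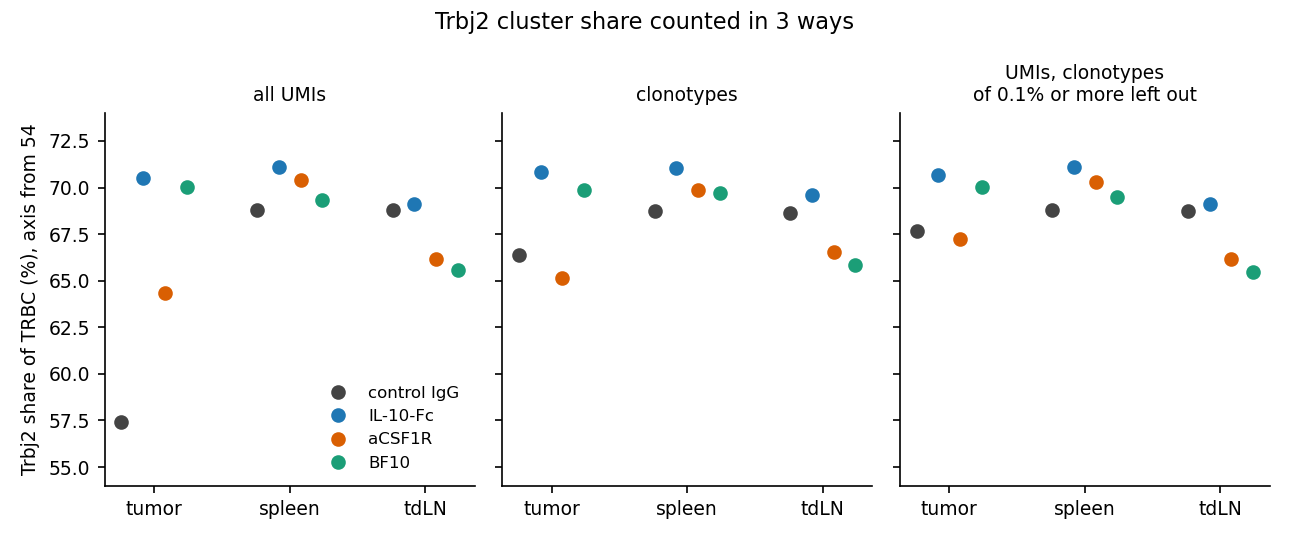
Trbj2 share of TRBC in the 12 libraries (y axis, percent, starting at 54), by tissue and treatment, as a share of all UMIs, of clonotypes, and of UMIs after clonotypes with at least 0.1% of TRBC UMIs were left out. Each point is 1 library. The control IgG tumor stands at 57.4% in the first panel and at 66.4% and 67.7% in the others, while spleen and tdLN libraries keep nearly the same place.

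Clonotypes with at least 0.1% of a library's TRBC UMIs are called expanded here. In the control IgG tumor 0.803% of all TRBC clonotypes were expanded, in that of IL-10-Fc 0.042%, in that of αCSF1R 3.05% and in that of BF10 0.00332%. Of the expanded clonotypes, 47 of 76 used a Trbj2 segment in the control IgG tumor (61.8%, 95% interval 50.6 to 71.9), 53 of 76 in the αCSF1R tumor (69.7%, 58.7 to 78.9), 16 of 23 in the IL-10-Fc tumor (69.6%, 49.1 to 84.4) and 2 of 3 in the BF10 tumor. These intervals include the Trbj2 share of all TRBC clonotypes in each of these libraries. Expressed per segment cluster, 0.748% of Trbj2 clonotypes and 0.912% of Trbj1 clonotypes were expanded with control IgG, and 3.26% and 2.65% with αCSF1R. Which cluster had the higher value thus differed between these tumors. The expanded Trbj2 clonotypes held 23.7% of TRBC UMIs in the control IgG tumor and 38.4% in that of αCSF1R, against 3.45% in the IL-10-Fc tumor and 0.335% in the BF10 tumor. The expanded Trbj1 clonotypes held 26.5% with control IgG, although they were fewer (29).

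Among the expanded clonotypes, J2-7 was the most frequent segment of the cluster in all 4 tumors, with 18 of 47 in the control IgG tumor, 20 of 53 in that of αCSF1R, 10 of 16 in that of IL-10-Fc and 2 of 2 in that of BF10. J2-7 was also the most used segment of the cluster among all clonotypes. Of all expanded TRBC clonotypes it made up 23.7% in the control IgG tumor (15.5 to 34.4, 95% interval), 26.3% in that of αCSF1R (17.7 to 37.2), 43.5% in that of IL-10-Fc (25.6 to 63.2) and 66.7% in that of BF10 (20.8 to 93.9). Its shares of all TRBC clonotypes were 20.4%, 19.3%, 21.5% and 21.2% in the same order and lay within the interval in the control IgG, αCSF1R and BF10 tumors and below it in that of IL-10-Fc, with counting error only in these intervals. In the IL-10-Fc tumor, 4 of the 10 were sequences of a single V16 with J2-7 peptide, printed further on. J2-2 had the fewest in these libraries or shared the lowest count, with 2 each in the control IgG and αCSF1R tumors and 0 in the other two. With 0 of 23 expanded clonotypes, the interval for J2-2 in the IL-10-Fc tumor reached to 14.3%, so the depth does not separate this count from the J2-2 share of clonotypes. J2-1 had 9 in the control IgG tumor and 10 in that of αCSF1R.

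All 118 expanded Trbj2 nucleotide clonotypes were expanded in 1 tumor library, and 0 were expanded in more than that. Listed at any level, 19 of the 47 of the control IgG tumor were found in the tdLN library of the same treatment, and from 0 to 2 in the tdLN libraries of the others. The same counts were 30 of 53 against 2 to 6 for αCSF1R, 15 of 16 against 0 to 2 for IL-10-Fc, and 2 of 2 against 0 for BF10. In each tumor library of the other treatments, 0 to 1 of the 47, 2 to 6 of the 53, 0 to 4 of the 16 and 0 to 1 of the 2 were listed. In the spleen library of the same treatment the counts were 5 of 47, 11 of 53, 6 of 16 and 1 of 2. Expanded Trbj1 clonotypes were found in the tdLN of the same treatment in 7 of 29, 16 of 23, 5 of 7 and 1 of 1 cases in the same order, and in the tdLNs of other treatments in 2 to 5, 3 to 4, 1 and 1. In each tumor library of the other treatments, 2 to 6, 3 to 4, 1 and 1 of them were listed. The spleen library of the same treatment held 2, 3, 3 and 0 of them. The same shares over all tumor clonotypes, and Trbj1 clonotypes expanded in more than 1 tumor, were not counted. Whether listings of a few UMIs in another library are reads carried over between libraries was not tested.

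The CDR3 sequences of the leading Trbj2 clonotypes are printed to show how much of each loop comes from the J segment, with the bases that match the germline J segment without a break from the end in capitals. They are the 3 Trbj2 clonotypes with the most UMIs in each tumor library and, for J2-2 and J2-4, the clonotype with the largest share in any tumor library. The remaining segments had that clonotype among the first 12.
tumor control IgG, V19 and J2-1: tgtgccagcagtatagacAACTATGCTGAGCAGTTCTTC
tumor control IgG, V19 and J2-7: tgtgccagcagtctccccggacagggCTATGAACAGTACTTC
tumor control IgG, V26 and J2-7: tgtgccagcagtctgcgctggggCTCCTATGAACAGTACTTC
tumor IL-10-Fc, V14 and J2-1: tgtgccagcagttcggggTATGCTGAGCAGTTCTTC
tumor IL-10-Fc, V16 and J2-7: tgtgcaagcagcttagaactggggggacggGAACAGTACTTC
tumor IL-10-Fc, V5 and J2-3: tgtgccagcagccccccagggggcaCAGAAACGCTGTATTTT
tumor αCSF1R, V16 and J2-5: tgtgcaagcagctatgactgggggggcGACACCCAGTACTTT
tumor αCSF1R, V19 and J2-1: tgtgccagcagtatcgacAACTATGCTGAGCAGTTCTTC
tumor αCSF1R, V19 and J2-3: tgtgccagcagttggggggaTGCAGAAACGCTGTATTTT
tumor BF10, V3 and J2-7: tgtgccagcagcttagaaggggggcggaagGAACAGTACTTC
tumor BF10, V16 and J2-7: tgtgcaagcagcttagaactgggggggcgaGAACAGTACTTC
tumor BF10, V20 and J2-4: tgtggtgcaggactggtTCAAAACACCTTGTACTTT
tumor control IgG, V23 and J2-2: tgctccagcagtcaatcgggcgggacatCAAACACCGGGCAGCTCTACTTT
tumor control IgG, V13-2 and J2-4: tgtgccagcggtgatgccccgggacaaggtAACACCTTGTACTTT

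The largest was V19 with J2-1 in the control IgG tumor, with 4434 UMIs or 4.26% of TRBC UMIs (4.14 to 4.39). Outside that library it was listed with 2 UMIs in the control IgG tdLN and with 1 UMI each in the BF10 tumor and the αCSF1R tdLN. V19 with J2-7 followed in the same tumor, with 2789 UMIs (2.68%) and 9 UMIs in the control IgG tdLN, and V26 with J2-7 had 1563 UMIs (1.5%) and was listed in no other library. In the αCSF1R tumor, V16 with J2-5 had 1496 UMIs (4.56%, 4.34 to 4.79), V19 with J2-1 had 1303 UMIs (3.97%) and V19 with J2-3 had 1103 UMIs (3.36%). These 3 were listed with 5, 8 and 8 UMIs in the αCSF1R tdLN.

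The leading clonotypes of the other tumors were smaller by share. In the IL-10-Fc tumor V14 with J2-1 had 476 UMIs (0.366%), V16 with J2-7 had 468 (0.360%) and V5 with J2-3 had 379 (0.291%). The first 2 of these had 21 and 64 UMIs in the IL-10-Fc tdLN, while the V5 clonotype was listed in no other library. In the BF10 tumor V3 with J2-7 had 296 UMIs (0.169%) and 126 UMIs in the BF10 tdLN, V16 with J2-7 had 290 (0.166%) and 73, and V20 with J2-4 had 123 (0.0703%, below the limit for an expanded clonotype) and 25. The largest J2-2 clonotype, V23 with J2-2, had 823 UMIs (0.791%) in the control IgG tumor, and the largest J2-4 clonotype, V13-2 with J2-4, had 1341 UMIs (1.29%) in the same tumor. V13-2 has close copies among the V genes, V13-1 and V13-3, and how the reads were divided between them was not given in the sources used here.

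Some expanded clonotypes of different tumors coded for the same CDR3 by different bases. The 118 expanded Trbj2 clonotypes gave 111 combinations of V, J and CDR3 peptide, and 3 of these combinations had more than 1 expanded nucleotide sequence. The corresponding numbers for Trbj1 were 48 and 2. These combinations were looked for after the clonotype values had been seen. The leading V19 with J2-1 clonotypes of the control IgG and αCSF1R tumors, printed above, were such a pair: they differed by A15C, counted from 1 at the first base of CDR3 with the control IgG base first, and their peptides of 13 residues were the same. The αCSF1R sequence of this pair had 4 UMIs in the BF10 tumor, 2 in the control IgG tdLN and 2 in the IL-10-Fc spleen. V20 with J2-7 formed another pair, with 153 UMIs in the control IgG tumor (0.147%) and 481 in the αCSF1R tumor (1.47%), whose sequences differed at 2 bases.

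V16 with J2-7 formed the largest such group, with 6 expanded nucleotide sequences for a single peptide of 14 residues. They are printed to show that they differ only next to the J-matching part, at 1 to 3 bases between any 2 of them, while 12 bases of J2-7 are retained in each.
V16 and J2-7 sequence A: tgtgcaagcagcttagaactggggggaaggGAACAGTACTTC
V16 and J2-7 sequence B: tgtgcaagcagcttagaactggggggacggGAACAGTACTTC
V16 and J2-7 sequence C: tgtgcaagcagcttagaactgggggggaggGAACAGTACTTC
V16 and J2-7 sequence D: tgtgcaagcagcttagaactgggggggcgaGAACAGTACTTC
V16 and J2-7 sequence E: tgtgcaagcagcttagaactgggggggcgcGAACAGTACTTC
V16 and J2-7 sequence F: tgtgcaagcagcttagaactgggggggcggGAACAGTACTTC

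Of these, A had 334 UMIs in the αCSF1R tumor (1.02%) and 14 in the αCSF1R tdLN. B had 468 UMIs in the IL-10-Fc tumor and 64 in its tdLN, and F had 352 and 7. C had 326 UMIs in the IL-10-Fc tumor and 55 in that of BF10, and E had 285 and 5, with 153 in the IL-10-Fc tdLN and 29 in the BF10 tdLN. D had 290 UMIs in the BF10 tumor and 1 in that of control IgG. Over all listed nucleotide sequences of this V, J and peptide, those below the limit for an expanded clonotype included, the sum was 1.11% of TRBC UMIs in the IL-10-Fc tumor, 1.03% in the αCSF1R tumor, 0.203% in the BF10 tumor and 0.000961% (1 UMI) in the control IgG tumor. The UMI counts of sequences 1 base apart within the IL-10-Fc tumor lay within 10-fold of each other, and merging 1-base neighbours that differ at least 10-fold left the number of expanded Trbj2 clonotypes within 1.5 times in every tumor.

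CDR3 length differed between the segments, with the same shortest and the same longest segment in each library. The mean over clonotypes with J2-7 ranged from 39.4 to 39.8 nucleotides over the 12 libraries, and J2-7 had the shortest mean of the 6 in 12 of 12. J2-2 had the longest in 12 of 12, from 43.5 to 44.4 nucleotides, and J2-3 ranged from 42.9 to 44.1. J2-1 (42.3 to 43.2), J2-4 (42.0 to 42.8) and J2-5 (41.7 to 42.1) also lay between, and the order of these segments varied between libraries. TRBC clonotypes as a whole ranged from 41.4 to 41.9, so that J2-7 was shorter than the whole in 12 of 12 libraries and each of the other 5 was longer in 12 of 12. Within a library, the lengths of clonotypes of a segment had an SD from 3.71 to 16.1 nucleotides. A small number of very long CDR3s entered these values: 0.0266% of Trbj2 CDR3s exceeded 90 bases, and without them the mean of J2-7 ranged from 39.3 to 39.8 and that of J2-2 from 43.5 to 44.3. All TRBC CDR3s listed had a length divisible by 3.

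The number of bases matching the J segment varied more between the segments than the rest of CDR3 did. J2-7 clonotypes matched on average 15.1 of its 19 bases and J2-2 clonotypes 20.6 of its 23, as means of the 12 libraries, while the rest of CDR3, from V, D and added bases, averaged 24.5 and 23.4 nucleotides. J2-3, J2-4 and J2-5 have the same number of germline bases, and yet their clonotypes matched 19.3, 18.6 and 17.8 of them. The whole of the J part was present in 46.6% of J2-3 clonotypes, 38.6% of J2-4 and 20.0% of J2-5 clonotypes. It was present least often with J2-1, in 12.9% of clonotypes (11.7% to 13.7% over the libraries), against 26.2% with J2-2 and 18.6% with J2-7. Added bases that match the germline by coincidence are counted as retained in these values.

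**Figure D4:**
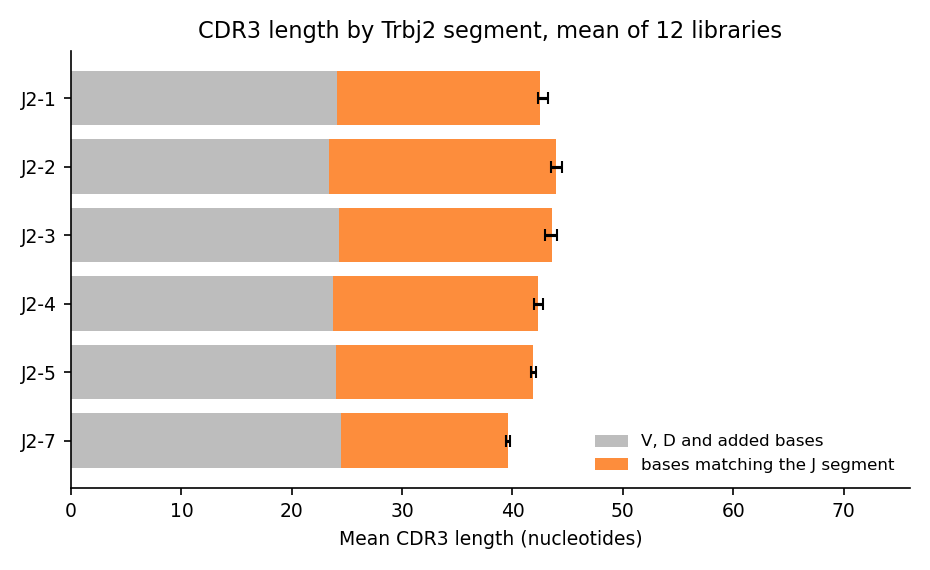
Mean CDR3 length by Trbj2 segment in nucleotides, as the mean of the 12 library means. Grey is the part from V, D and added bases, orange the part matching the germline J segment, and whiskers run from the lowest to the highest library mean. The grey parts lie between 23.4 and 24.5 nucleotides, while the orange part runs from 15.1 with J2-7 to 20.6 with J2-2.

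The D segment between V and J left different traces in the Trbj2 segments. Trbd1 lies upstream of the Trbj1 cluster at chr6:41533201-41533212, and Trbd2 lies between the clusters at chr6:41542163-41542176, 591 bases before the start of J2-1. The letters that tell them apart are shown in capitals.
Trbd1: ggGACAGGgggc
Trbd2: ggGACTGGgggggc

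These 6 letters (GACAGG of Trbd1, GACTGG of Trbd2) were searched on the coding strand between base 10 of CDR3 and the J-matching part, and a match is a description, since short or trimmed D remains escape it. Over the 12 libraries, from 20.0% to 21.6% of Trbj2 clonotypes held the Trbd2 letters and from 11.6% to 13.2% the Trbd1 letters. Of Trbj1 clonotypes, from 0% to 0.189% held the Trbd2 letters and from 20.9% to 23.4% those of Trbd1. Trbd2 lies downstream of the Trbj1 segments, so that a joint of Trbd2 with Trbj1 is not expected by deletion. The higher frequency of Trbd2 letters with Trbj2 in 12 of 12 libraries was therefore set in advance by the order of the genes.

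Among the 6 segments, J2-2 differed from the others in this respect. From 12.5% to 17.6% of its clonotypes held the Trbd1 letters and from 11.2% to 15.0% those of Trbd2, and the ratio of Trbd2 to Trbd1 letters lay between 0.77 and 0.93 in the 12 libraries. With J2-4, from 18.4% to 22.5% held the Trbd2 letters and from 9.0% to 14.5% those of Trbd1, a ratio from 1.55 to 2.10. The ratios of J2-1 (1.32 to 2.12), J2-3 (1.62 to 1.96), J2-5 (1.63 to 2.32) and J2-7 (1.49 to 1.81) also exceeded 1 in every library. The ranges of J2-2 and of each other segment did not overlap. Of the leading tumor clonotypes printed above, the V16 with J2-5 clonotype of αCSF1R and the V20 with J2-4 clonotype of BF10 held the Trbd2 letters, and V19 with J2-7 of control IgG held those of Trbd1.

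The V partners of the segments were compared with the numbers of clonotypes that independent choice of V and J within a library would give, over 19 V genes that had at least 1% of TRBC clonotypes in each spleen library. V29 was the most frequent V of J2-1, J2-2, J2-3 and J2-5 in the mean of the spleens, with 11.7%, 14.1%, 11.3% and 13.9% of their clonotypes, and it made up 12.5% of all TRBC clonotypes there. V16 was the most frequent with J2-4 (13.1%) and J2-7 (12.0%), at 11.4% of all. With J2-3 the spleen means of V29 and V16 were nearly equal (11.34% and 11.26%). The lowest V29 share in a spleen library lay below the lowest V16 share with J2-1, J2-2, J2-3 and J2-5. In the tdLN means V16 was ahead of V29 with J2-1 (9.71% against 8.39%) and J2-2 (12.0% against 8.74%). The same held with J2-3 (10.2% against 6.75%) and J2-5 (11.1% against 8.36%). Ratios of observed to expected numbers ran from 0.60 to 1.58 over the 114 pairs in the spleen means. Of these pairs, 34 lay on the same side of 1 in all 12 libraries, 15 above and 19 below. The same count for pairs with Trbj1 segments is not given here, so this number cannot be called particular to Trbj2.

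J2-5 had the widest range of ratios. V12-2 with J2-5 was the pair furthest above 1, with a mean ratio in spleens of 1.58 (1.48 to 1.71), in tdLNs of 1.44 (1.38 to 1.48) and in tumors of 1.45 (1.13 to 1.65). V15 with J2-5 was the pair furthest below 1, with 0.60 (0.56 to 0.64) in spleens, 0.70 (0.65 to 0.72) in tdLNs and 0.51 (0.29 to 0.63) in tumors. V12-2 has a close copy, V12-1, and how reads were divided between them was not given in the sources used here. With J2-4 the range was the narrowest, from 0.84 for V5 to 1.14 for V16.

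V17 was above 1 with J2-1, J2-2 and J2-5 in 12 of 12 libraries, and 78.6% of its clonotypes in spleens used a Trbj2 segment, the highest such share among the V genes compared. With J2-2 its ratio was 1.43 in spleens (1.32 to 1.49), 1.37 in tdLNs and 1.45 in tumors, and with J2-1 it was 1.23 (1.16 to 1.27), 1.36 and 1.19. With J2-5 it was 1.19 in spleens (1.12 to 1.30), 1.26 in tdLNs and 1.16 in tumors. In spleens J2-2 had its smallest ratio with V20, at 0.67 (0.62 to 0.70). This pair was below 1 in 12 of 12 libraries, with 0 such clonotypes in 1 tumor library. J2-2 clonotypes were few in tumors, down to 80 in the αCSF1R tumor, and V4 with J2-2 also had a lowest tumor ratio of 0. J2-1 was paired least often with V13-2, at 0.88 (0.84 to 0.91), below 1 in 11 of 12.

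V15 was more frequent than expected with J2-7, at 1.25 in spleens (1.20 to 1.28), above 1 in 11 of 12 libraries, and so had opposite deviations with J2-5 and J2-7. V31, which lies downstream of the cluster at chr6:41557693-41558371, was the least frequent partner of J2-7 relative to expectation, at 0.75 (0.74 to 0.78) and below 1 in 12 of 12. With J2-3, V31 had the largest ratio of any V, at 1.21 (1.14 to 1.29), above 1 in 11 of 12. The smallest J2-3 ratio in spleens was with V26, at 0.70 (0.64 to 0.75), below 1 in 12 of 12 libraries. Ratios in tumors rest on fewer clonotypes, down to 1624 Trbj2 clonotypes in the αCSF1R library, and they ranged more widely than those in spleens for each of the 3 V15 and V31 pairs with J2-5 and J2-7.

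**Figure D5:**
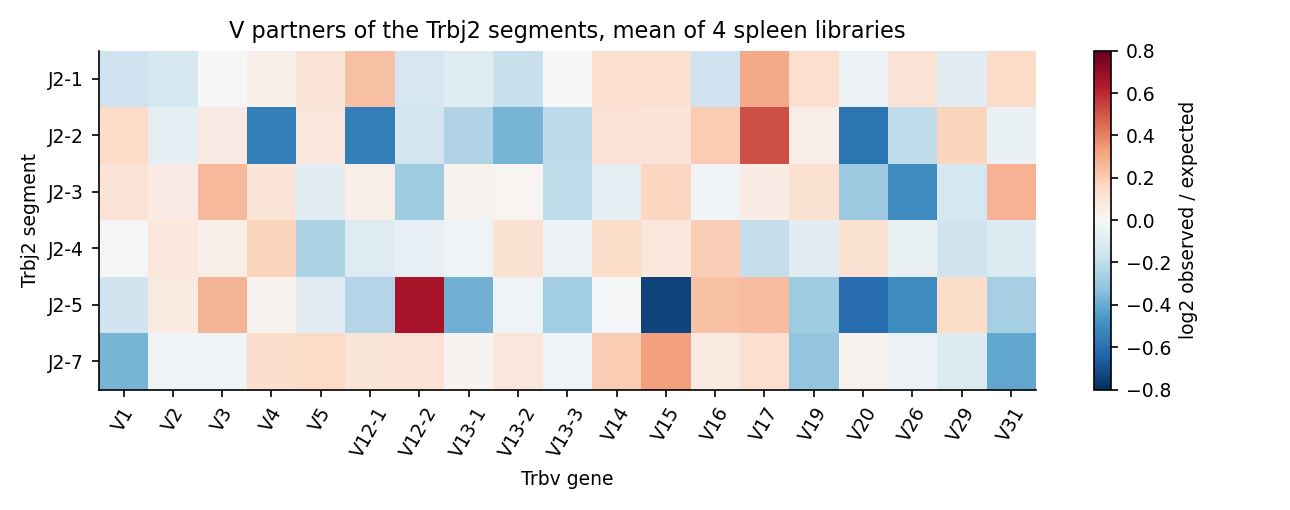
Observed over expected number of clonotypes for each pair of a Trbv gene (x axis) and a Trbj2 segment (y axis), on a log2 colour scale, as the mean of the 4 spleen libraries. Red is more and blue fewer than expected, so that V12-2 with J2-5 (ratio 1.58) is the deepest red and V15 with J2-5 (ratio 0.60) the deepest blue.

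The segments also differed in how alike their clonotype shares ran over the 12 libraries. After division of each segment's share by its own mean, J2-4 and J2-7 were the most alike of the cluster, with a root mean square difference of 0.025. J2-5 was nearest to J2-7 (0.037) and J2-3 to J2-4 (0.048). J2-2 was nearest to J2-5, at 0.083, and J2-1 to the Trbj1 segment J1-2, at 0.078, with J2-4 next at 0.079. The 12 libraries share cell source, kit and depth differences, and these values describe them without a test.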

How the data were processed

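Receptor libraries were made by the authors from 100 ng of RNA per library with a QIAseq mouse TCR kit, sequenced on an Illumina instrument and processed in Qiagen's QIAseq immune repertoire portal, and the submitters' processing notes name the build mm10. The germline set and error correction behind the V and J calls are not given in the sources used here. The authors deposited raw counts per clonotype and library, that is, UMIs with at least 3 reads (used here) and with higher minimums up to 7 reads, and these counts are not normalized. TRBC rows were taken as listed. The members and lists were chosen with earlier results of these data known. Shares, Wilson intervals, CDR3 lengths, V-to-J ratios (product of the V and J shares as expectation) and sign-flip tests, adjusted by Benjamini-Hochberg, were computed in Python 3.11.15 with numpy 2.4.6, pandas 2.3.3 and scipy 1.17.1, after tests on simulated data. J, D and V positions are those of RefSeq on GRCm38.p6. V partners named are the V with the largest share and those with the largest and smallest ratio in spleens, and clonotypes named are the 3 with the most UMIs of each tumor and the largest of each segment. Alternatives were UMIs with at least 7 reads, clonotypes in place of UMIs, clonotypes with at least 2 UMIs, no expanded clonotypes, other limits for expansion, merged neighbours, log2 shares and leaving out treatments. Leaving out αCSF1R and BF10 together was chosen after seeing the data.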

Additional observations from a re-analysis of the deposited data

Results flagged for a closer look

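The Trbj2 share of TRBC UMIs moved in opposite directions in tumor and tdLN for 2 treatments, each with 1 library per tissue. With αCSF1R it was 6.92 percentage points above control IgG in the tumor and -2.63 points from control IgG in the tdLN. With BF10 it was 12.6 points above control IgG in the tumor and -3.23 points from control IgG in the tdLN. The difference between the tissues was not tested, because no treatment had a replicate, and both comparisons share the control IgG libraries. The tdLN libraries of these treatments were also those with the fewest UMIs with at least 7 reads (10.4% and 8.26%), and the control IgG tumor was the library with 23.7% of TRBC UMIs in expanded Trbj2 clonotypes and 26.5% in expanded Trbj1 clonotypes. The part of either in these values was not tested. Counted by clonotypes, the tumor values were -1.25 points for αCSF1R and 3.48 points for BF10, and the tdLN values were -2.12 and -2.81 points.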

How the results depend on the processing

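The Trbj2 differences of tumors from control IgG depended on the count. With UMIs of at least 7 reads they were 12.6, 6.22 and 12.2 points for IL-10-Fc, αCSF1R and BF10, with clonotypes 4.45, -1.25 and 3.48, and without expanded clonotypes 3.01, -0.42 and 2.32. Between tumor and tdLN, the Trbj2 difference of -1.82 points turned to 0.40 with clonotypes, to 1.54 without expanded clonotypes and to 1.36 without control IgG. Leaving out 1 treatment gave from -3.92 to 1.36 points there, from 1.92 to 3.35 between spleen and tdLN and from -6.00 to -1.98 between tumor and spleen, the last without control IgG. The J2-4 difference between tumor and spleen was 0.27 points without expanded clonotypes. At 0.05% of TRBC UMIs the expanded Trbj2 clonotypes numbered 82 with control IgG, 114 with αCSF1R and 6 with BF10, and at 0.5% they numbered 12 with control IgG, 18 with αCSF1R and 0 in both other tumors (IL-10-Fc, BF10). Some mean CDR3 lengths in spleens moved by more than the SD between libraries, with J2-7 the shortest in 12 of 12 libraries and J2-2 the longest in 11 of 12 under both alternatives (in the BF10 spleen J2-3 was longer): weighted by UMIs, J2-2 had 43.9, J2-4 42.3, J2-5 41.9 and J2-7 39.4 nucleotides, and with at least 2 UMIs per clonotype J2-1 had 42.4, J2-2 43.9, J2-4 42.3 and J2-7 39.4. With at least 2 UMIs, 0.102% of Trbj1 clonotypes in spleens held the Trbd2 letters. With UMIs of at least 7 reads J2-2 was higher in spleen than in tdLN in 3 of 4 treatments, not 4, and without expanded clonotypes J2-4 had 2 of 4 treatments each way between tumor and spleen. Other single Trbj2 segments with 1 direction in 4 of 4 treatments kept it under the alternatives that use all 4 treatments, and each named V and J ratio kept its side of 1. The causes were not tested. Libraries with 1 mixed sample each limit all comparisons of treatments, and the αCSF1R tumor was the shallowest.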
